A study of Mus musculus with 30 samples.

Results

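Matricellular proteins are secreted glycoproteins that sit in the extracellular matrix and signal to cells, and fibronectin is the adhesive fibril-forming glycoprotein on which much of that matrix is assembled. The 8 genes described here are Fn1, encoding fibronectin; Thbs1 and Thbs2, the thrombospondins; Postn, periostin; Tnc, tenascin C; Spp1, osteopontin; and Sparc with its relative Sparcl1. They were chosen by name, as 8 of the 14379 genes that could be summed from the deposited transcripts. Earlier results of these data were known by then, among them the wide range of Sparc within groups. The counts of members given below therefore describe a list that was not picked independently of the data. All 8 passed the filter for testing (at least 1 FPKM in at least 5 libraries), which 13223 genes passed, and each reached 1 FPKM in 27 to 30 of the 30 libraries.

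Abdominal aortas were taken from C57BL/6 mice of wild-type genotype after 28 days of treatment and sequenced as 6 groups of 5 libraries. Control mice received saline, and AngII mice received angiotensin II at 500 ng/kg/min plus saline. The remaining groups received the same infusion with ethoxysanguinarine (AngII+ETH), baicalin (AngII+BAI) or gastrodin (AngII+GAS), plant compounds each given at 5 mg/kg/day, or with valsartan (AngII+VAL), a blocker of the type 1 angiotensin receptor, at 10.4 mg/kg/day. No source used here gave the animals' age or sex, or tied a library to a single mouse, so p-values measure the spread between these libraries. Levels are FPKM, fragments per kilobase of transcript adjusted for sequencing depth, and fold changes are differences in mean log2(FPKM + 1) from limma, fitted to all groups at once, with p-values adjusted by Benjamini and Hochberg over all genes tested.

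In injured and pressure-loaded arteries, smooth muscle cells, fibroblasts and macrophages make these proteins. They act as ligands for integrins, syndecans, CD36, CD44 and CD47, and several of them bind collagens and steer fibril assembly. Thrombospondin 1 also activates latent transforming growth factor beta, and osteopontin serves as an adhesive ligand and cytokine.

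Coding exons that distinguish the annotated transcripts of 3 members are shown. For Sparc and Postn, the transcripts carrying or lacking them exchanged places between libraries, and for Fn1 the share with the exon was compared. All 3 exons are read from GENCODE M21 transcripts on GRCm38, the assembly also called mm10. The Sparc exon lies on the minus strand at chr11:55407220-55407279, and its capitals mark the 3 bases present in Sparc-201 and absent from Sparc-202. The Postn exon of 84 bases lies on the plus strand at chr3:54385671-54385754 and is part of Postn-201 and absent from Postn-204. The Fn1 exon of 270 bases lies on the minus strand at chr1:71603660-71603929 and encodes the alternatively spliced extra domain A of cellular fibronectin.
Sparc exon: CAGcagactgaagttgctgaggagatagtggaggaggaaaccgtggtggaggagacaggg
Postn exon: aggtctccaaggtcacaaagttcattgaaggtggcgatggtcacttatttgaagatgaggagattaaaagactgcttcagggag
Fn1 exon: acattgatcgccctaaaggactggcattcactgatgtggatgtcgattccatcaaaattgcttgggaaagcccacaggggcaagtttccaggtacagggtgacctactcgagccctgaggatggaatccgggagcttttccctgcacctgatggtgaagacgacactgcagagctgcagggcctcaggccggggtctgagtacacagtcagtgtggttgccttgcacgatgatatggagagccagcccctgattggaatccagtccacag

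Depth and cell makeup were examined before the members. Low values step in units of 1 read, and the size of the step put depth at 70300000 to 80200000 reads a library, at which 3 reads on a 2 kb transcript equal 0.0187 to 0.0213 FPKM. Smooth muscle markers (Myh11, Acta2, Cnn1, Tagln, Smtn and Lmod1, 6 of 6 found) summed to 3207 to 12100 FPKM in 28 libraries, to 1327 in AngII+BAI 3 and to 2494 in AngII+BAI 5. Macrophage markers (Cd68, Csf1r, Adgre1, Mrc1, C1qa and Lyz2, 6 of 6 found) summed to 2510 FPKM in AngII+BAI 3, 1593 in AngII+BAI 5 and 1258 in AngII+VAL 2, against 166 to 671 in the others. The AngII+BAI comparisons below are followed by their values without AngII+BAI 3 and 5, a setting added after seeing the data. In whole tissue, fewer cells of a type and less RNA per cell cannot be told apart.

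The summed Fn1 level separated the infused aortas of the AngII group from saline-treated ones without overlap. Fn1 (chr1:71585520-71653200, minus strand) was at 121, 89.6, 229, 182 and 197 FPKM in the 5 Control libraries and at 380, 431, 489, 460 and 279 FPKM in the 5 AngII libraries. Every AngII library lay above every Control library. Most of this sum came from a partial, noncoding model of the gene, described below. The coding transcripts that span the exon of 270 bases did overlap. They summed to 3.88 to 11.2 FPKM in Control and 10.3 to 24.1 FPKM in AngII. The log2 fold change was 1.36 (SE 0.53, limma adjusted p = 0.32), which did not pass the threshold of 0.05.

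The thrombospondin gene Thbs1 (chr2:118111876-118127133, plus strand) gave the same kind of separation at a lower level. Its levels were 14.9, 7.14, 12.2, 11.1 and 14.2 FPKM in Control and 20.9, 56.7, 84.03, 25.7 and 24.9 FPKM in AngII. The groups did not overlap, and AngII 2 and AngII 3 were well above the other AngII libraries. The log2 fold change was 1.58 (SE 0.53, limma adjusted p = 0.27). Sparcl1 (chr5:104079111-104113733, minus strand), an anti-adhesive relative of Sparc, was at 141, 124, 159, 144 and 123 FPKM in Control and 212, 168, 222, 245 and 330 FPKM in AngII. These groups did not overlap either, and the log2 fold change was 0.73 (SE 0.24, limma adjusted p = 0.25). Fibroblast markers (Pdgfra, Dpt, Pi16, Lum, Dpep1 and Cd34, 6 of 6 found) moved with these 3 genes, with sums of 439.5 to 876 FPKM in AngII and 289 to 438.3 in Control. Over the 30 libraries Spearman's rho with that sum was 0.48 for Fn1, 0.59 for Thbs1 and 0.50 for Sparcl1. Each gene had a rho of larger size with another marker sum. These were 0.56 for Fn1 with smooth muscle, 0.69 for Thbs1 with macrophages and -0.56 for Sparcl1 with mesothelium (3 of 4 markers found). The part of any of these cell types in the differences was not tested.

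Across the 8 members, limma called 0 between AngII and Control, where it called 0 of all 13223 genes (0%), and 3 of 8 members had an unadjusted p under 0.05 against 11.2% of all genes. The ranges of AngII and Control did not overlap, with AngII higher, for 3 of 8 members (Fn1, Thbs1 and Sparcl1), against 3.01% of all genes tested. All 8 fitted differences were positive, with a median of 0.69 on the log2 scale, beside a median of 0.11 and 66.6% positive among all genes. The other 5 differences were Spp1 1.93 (SE 0.94), Postn 0.64 (SE 0.37), Thbs2 0.55 (SE 0.51), Sparc 0.12 (SE 0.88) and Tnc 0.03 (SE 0.76). The signs of Sparc and Tnc were not stable. Sparc was at -0.17 with array weights and -0.75 without AngII 5, and also below 0 without Control 3, 4 or 5, at -0.18 to -0.21. Tnc was at -0.12 with quantile normalization, and between -0.45 and -0.02 without Control 3 or AngII 1, 2, 3 or 5. Without AngII 3 the Spp1 difference was 1.07 and that of Thbs2 0.21.

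**Figure D1:**
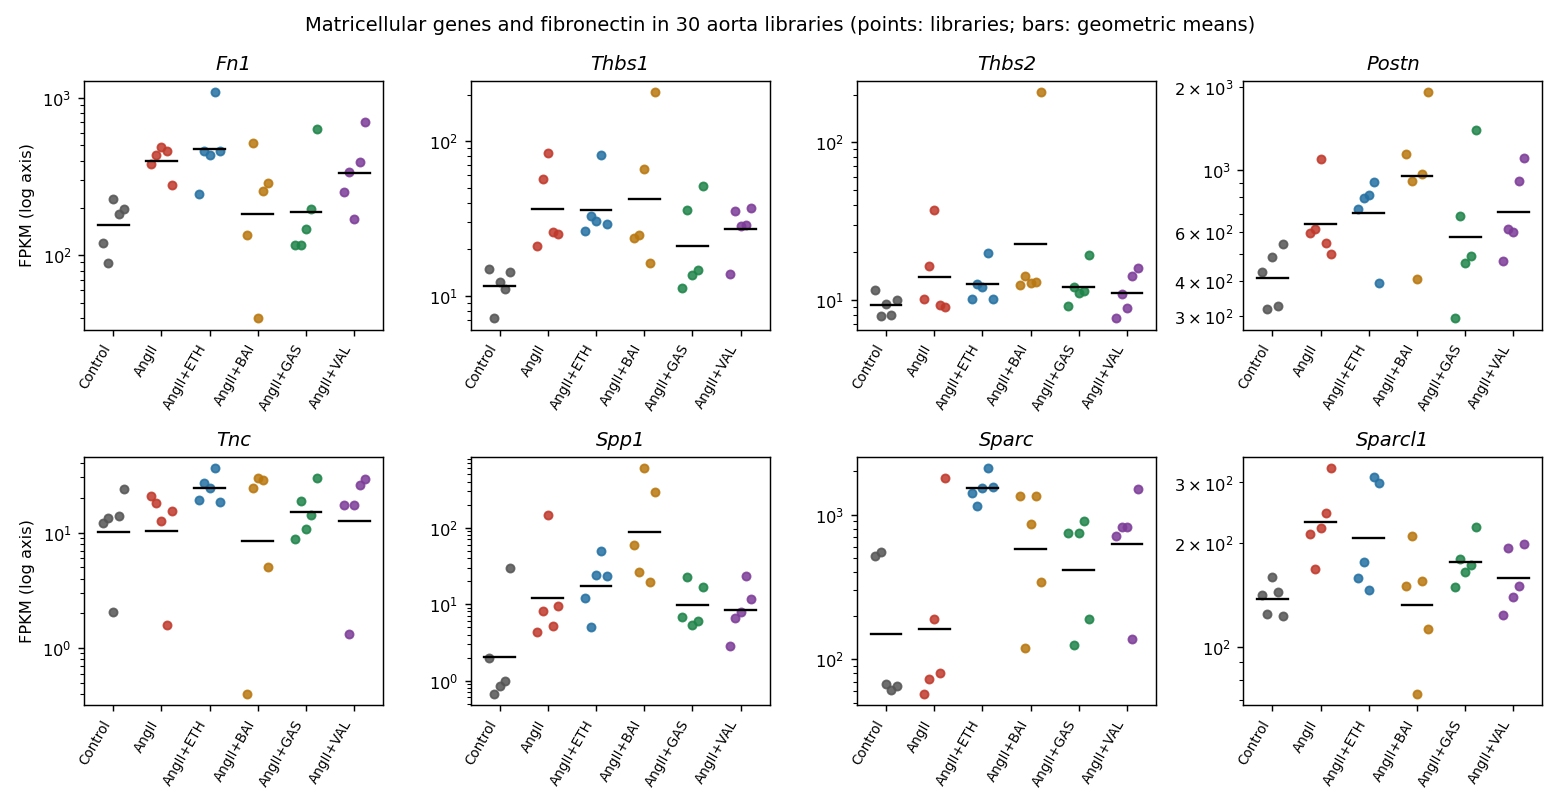
Levels of the 8 genes in FPKM on log axes, by group. Each point is a library and each bar the geometric mean of 5 libraries. For Fn1, Thbs1 and Sparcl1 all AngII points lie above all Control points, while Sparc spans 57.4 to 1791 FPKM within AngII alone.

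Thbs2 and Postn, whose products bind collagen and collagen-processing enzymes, overlapped between AngII and Control. Thbs2 (chr17:14665500-14694235, minus strand) was at 9.35 ± 1.51 FPKM in Control and 16.4 ± 11.95 in AngII (SD, n = 5 each). AngII 3 held 37.1 FPKM of it and the other AngII libraries 9.05 to 16.4. Postn (chr3:54361109-54391037, plus strand) was at 430, 318, 488, 325 and 544 FPKM in Control and 595, 615, 1102, 549 and 501 FPKM in AngII. AngII 3 was again the highest library, and only AngII 5 fell within the Control range.

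Tenascin C, a hexameric glycoprotein of remodelling tissue, had a median of 17.7 FPKM over the 30 libraries, between Thbs2 (11.4) and Thbs1 (25.9). Tnc (chr4:63959785-64047015, minus strand) was at 12.1, 13.5, 2.05, 13.8 and 23.7 FPKM in Control and 20.7, 17.9, 12.7, 1.58 and 15.2 FPKM in AngII. It was under 6 FPKM in 5 libraries (Control 3, AngII 4, AngII+BAI 1, AngII+BAI 5 and AngII+VAL 2), and the next lowest library held 8.88 FPKM. The low libraries came from 4 groups, and the ranges of all 6 groups overlapped one another.

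Osteopontin had the widest fitted difference and supplied the one member called in any comparison. Spp1 (chr5:104435118-104441050, plus strand) was at 2.001, 0.667, 0.843, 0.997 and 29.9 FPKM in Control, and at 60.2, 25.9, 602, 19.4 and 290 FPKM in AngII+BAI. In 4 of 5 Control libraries it was at or below 2.001 FPKM, and every AngII+BAI library was above these 4. Control 5 lay within the AngII+BAI range. Spp1 rose in AngII+BAI against Control with a log2 fold change of 4.66 (SE 0.94, limma adjusted p = 0.028).

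That call was 1 of 8 members, beside 1.44% of all genes (190 of 13223) in the same comparison. Without AngII+BAI 3 and 5 the difference was 3.18 (adjusted p = 0.13), and it was also lost without AngII+BAI 3 alone (adjusted p = 0.066), AngII+BAI 5 alone (0.068), or any of Control 1 (0.082), 2 (0.078), 3 (0.062) and 4 (0.075). The highest Spp1 levels stood in the libraries with high macrophage markers, AngII+BAI 3 and AngII+BAI 5, and AngII 3, at 147 FPKM of Spp1, had the next highest macrophage sum after AngII+VAL 2, 671 FPKM. AngII+VAL 2 itself had a macrophage sum of 1258 FPKM and 6.55 FPKM of Spp1. Across the 30 libraries Spearman's rho between Spp1 and the macrophage sum was 0.73, as a description over libraries that share groups. The part of macrophages in the difference was not tested.

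**Figure D2:**
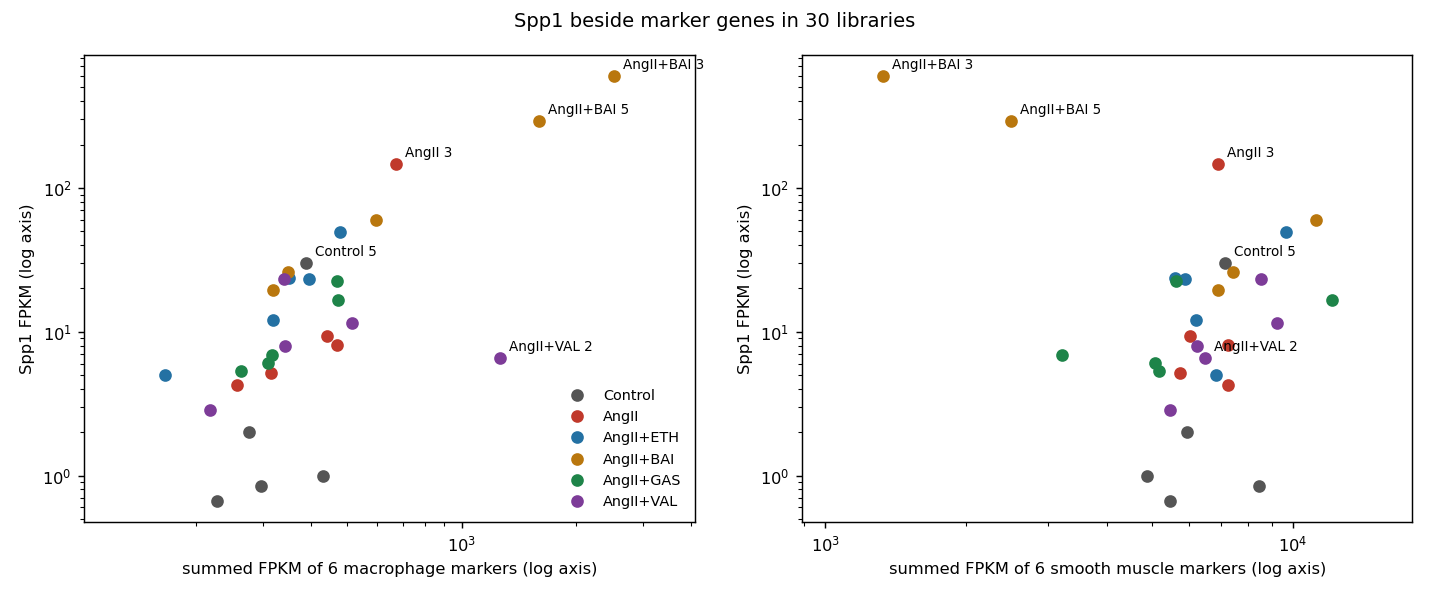
Spp1 (FPKM, log axis) against the summed FPKM of 6 macrophage markers (left) and of 6 smooth muscle markers (right), 1 point per library coloured by group. AngII+BAI 3 and AngII+BAI 5 have the highest Spp1, the highest macrophage sums and the lowest smooth muscle sums.

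Spp1 in the other infused groups lay between Control and AngII+BAI. It was at 4.30, 8.05, 147, 5.19 and 9.34 FPKM in AngII, and at 11.98, 4.99, 23.7, 49.4 and 23.2 FPKM in AngII+ETH. In AngII+GAS it ranged from 5.31 to 22.7 FPKM (median 6.86) and in AngII+VAL from 2.85 to 23.1 FPKM (median 7.99). All 20 of these libraries exceeded 4 of the 5 Control libraries. Against AngII, the AngII+BAI difference was 2.73 (SE 0.94, limma adjusted p = 0.18).

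AngII+BAI 5 stood apart for several matrix genes at once. It held 207 FPKM of Thbs1, 207 FPKM of Thbs2 and 1908 FPKM of Postn, each the highest of the 30 libraries. The other AngII+BAI libraries held 12.4 to 14.1 FPKM of Thbs2 and 16.3 to 65.9 FPKM of Thbs1. AngII+BAI 3, which also had low smooth muscle markers, held 12.7 FPKM of Thbs2, 408 FPKM of Postn and the lowest Fn1 (39.8 FPKM) and Sparcl1 (72.9 FPKM) of all libraries. The 2 libraries thus shared high Spp1 and parted on Thbs2, Postn and Fn1. Fibroblast markers summed to 1027 FPKM in AngII+BAI 5 and 220 FPKM in AngII+BAI 3, the highest and the lowest of the 30 libraries, and their part in these levels was not tested.

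Against Control, AngII+BAI was higher without overlap for 2 of 8 members (Thbs1 and Thbs2), beside 2.23% of all genes, and 5 of 8 had an unadjusted p under 0.05 beside 19% of all genes. The differences were 1.78 for Thbs1 (SE 0.53, limma adjusted p = 0.079), 1.21 for Postn (SE 0.37, adjusted p = 0.083) and 1.23 for Thbs2 (SE 0.51, adjusted p = 0.18). Without AngII+BAI 3 and 5, 2 of 8 members (Postn and Spp1) had an unadjusted p under 0.05 beside 16.5% of all genes. The differences were then 0.82 for Thbs1, 1.29 for Postn and 0.46 for Thbs2 (adjusted p = 0.39, 0.13 and 0.49), and AngII+BAI 5 alone decided that of Thbs2, which was 0.45 without it.

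In AngII+BAI against AngII, limma called 0 of 8 members and 44 of all genes (0.333%), with 4 of 8 members and 14.6% of all genes at an unadjusted p under 0.05. Fn1 was at 135, 516, 39.8, 255 and 287 FPKM in AngII+BAI, and only AngII+BAI 2 lay above the AngII range. Its difference was −1.12 (SE 0.53, adjusted p = 0.33), and -0.58 without AngII+BAI 3. Sparcl1 was at 150, 210, 72.9, 155 and 113 FPKM in AngII+BAI, close to Control, with a difference from AngII of −0.79 (SE 0.24, adjusted p = 0.13). Only AngII+BAI 2 reached the AngII range. Without AngII+BAI 2, Sparcl1 passed the threshold (adjusted p = 0.045). Without AngII+BAI 3 and 5, 0 of 8 members had an unadjusted p under 0.05 beside 20.4% of all genes. The differences from AngII were then -0.61 for Fn1, -0.43 for Sparcl1 and 1.25 for Spp1 (adjusted p = 0.53, 0.30 and 0.48).

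Neither gastrodin nor valsartan gave a called member against AngII. In AngII+GAS against AngII, 0 of 8 members were called by limma, as were 2 of all genes (0.0151%), and 0 of 8 had an unadjusted p under 0.05 against 13.7% of all genes. Fn1 was at 116, 116, 146, 197 and 630 FPKM in AngII+GAS, with 4 of 5 libraries under the lowest AngII library and AngII+GAS 5 above the highest. Its difference from AngII was −1.07 (SE 0.53, adjusted p = 0.37). In AngII+VAL against AngII, 0 of 8 members and 0 of all genes (0%) were called, and 2 of 8 members (Sparc and Sparcl1) had an unadjusted p under 0.05 against 10.8% of all genes. Sparcl1 was at 124, 193, 139, 151 and 199 FPKM in AngII+VAL, with a difference of −0.53 (SE 0.24, adjusted p = 0.42). Skeletal muscle markers (Acta1, Ckm, Myh4, Mylpf and Tnnc2, 5 of 6 found) summed to 544 to 3075 FPKM in AngII+VAL and 4.51 to 56.9 in AngII, and kidney markers (Slc34a1, Kap and Aqp2, 3 of 6 found) to 70.3 to 100.4 and 0.288 to 33.5 FPKM. The skeletal muscle sum was also 1201 and 3459 FPKM in Control 1 and 2, which held the least Fn1 of Control. It was 7.95 to 29.8 FPKM in Control 3, 4 and 5, 1146 in AngII+ETH 1 and 2838 in AngII+BAI 3. Spearman's rho with this sum over 30 libraries was -0.49 for Sparcl1 and -0.34 for Fn1. The part of these tissues in this or the other comparisons was not tested.

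AngII+ETH libraries lay near AngII for fibronectin and thrombospondin 1. Fn1 was at 245, 461, 434, 1085 and 458 FPKM, Thbs1 at 26.0, 32.9, 30.5, 81.2 and 28.9 FPKM, and each was above every Control library. Against Control the differences were 1.62 for Fn1 (SE 0.53, adjusted p = 0.90) and 1.56 for Thbs1 (SE 0.53, adjusted p = 0.95). With Sparc, 3 of 8 members did not overlap with Control, beside 1.29% of all genes, and limma called 0 of 8 members and 0 of all genes (0%). An unadjusted p under 0.05 was found for 6 of 8 members and 5.18% of all genes. Against AngII, 0 of 8 members and 0 of all genes (0%) were called, and 1 of 8 members (Sparc) had an unadjusted p under 0.05 beside 3.41% of all genes.

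The remaining comparisons with Control called 0 of 8 members. For AngII+GAS limma called 1 gene in all (0.00756%), and 0 of 8 members had an unadjusted p under 0.05 beside 3.7% of all genes. For AngII+VAL it called 0 genes (0%), and 4 of 8 members (Sparc, Fn1, Postn and Thbs1) had an unadjusted p under 0.05 beside 3.84%. Single libraries decided this count of members. It was 0 without Control 4 and 0 without AngII+VAL 5, beside 499 and 458 of 13223 genes. It was 1 without Control 2 or without AngII+VAL 4. All 8 fitted differences were positive in both comparisons, beside 39.2% of all genes for AngII+GAS and 48.9% for AngII+VAL. Fn1 in AngII+GAS turned to -0.14 without AngII+GAS 5, and Tnc turned to -0.02 in AngII+GAS and -0.16 in AngII+VAL without Control 3. These comparisons share the Control libraries, so their signs are not independent of each other.

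**Figure D3:**
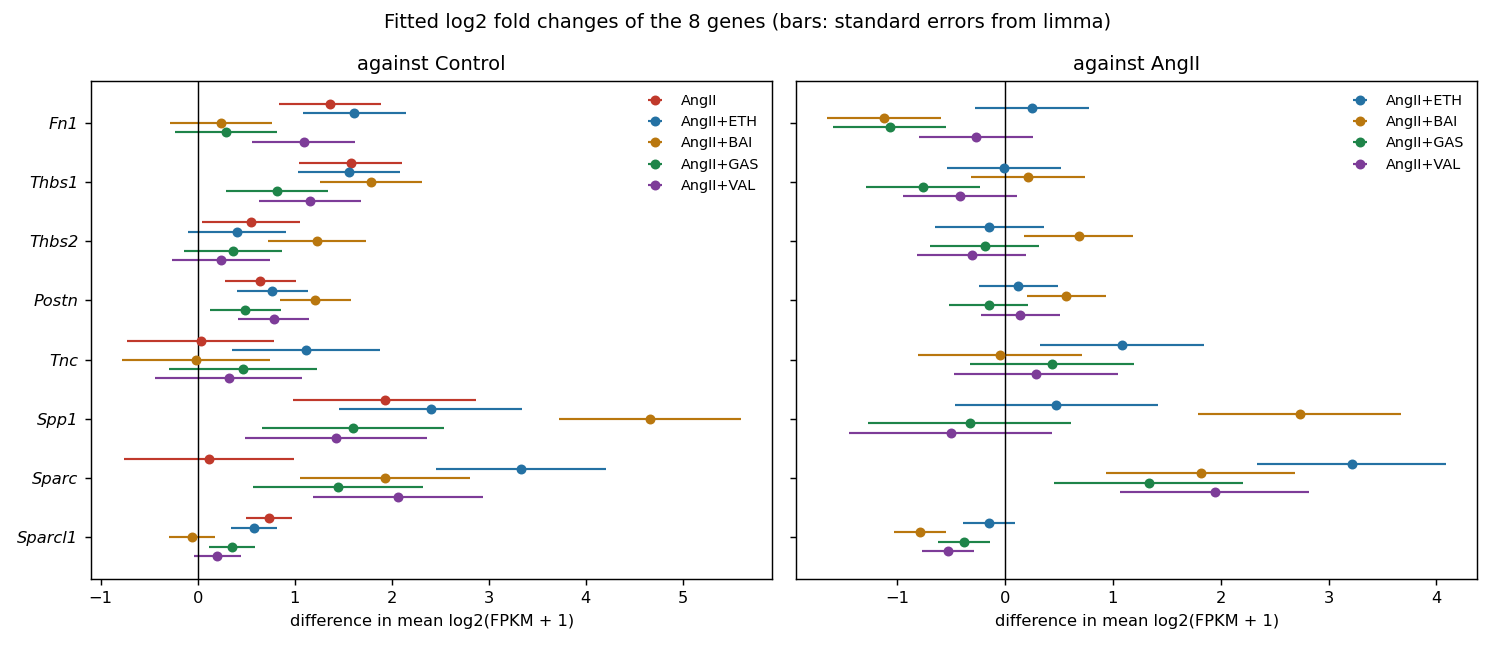
Fitted differences in mean log2(FPKM + 1) for the 8 genes against Control (left) and against AngII (right), with standard errors from limma as bars. Spp1 in AngII+BAI (4.66) and Sparc in AngII+ETH (3.33) have the largest differences from Control, and only the first was called.

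Sparc, which encodes the collagen-binding glycoprotein also called osteonectin, spanned a wide range within groups and was therefore followed transcript by transcript. Annotated Sparc (chr11:55394500-55423183, minus strand) was at 520, 553, 66.8, 61.3 and 65.1 FPKM in Control, and at 57.4, 72.3, 191, 80.5 and 1791 FPKM in AngII. In AngII+ETH it was at 1425, 1152, 1543, 2109 and 1558 FPKM. The AngII+ETH libraries were uniformly high, while 3 Control and 4 AngII libraries were under 200 FPKM. AngII+BAI (119 to 1358 FPKM), AngII+GAS (125 to 903 FPKM) and AngII+VAL (138 to 1517 FPKM) held libraries at both ends. The pooled SD within groups was 1.45 on the log2 scale, at the 98.7th percentile of all genes tested.

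Among transcripts assembled from the reads, which the deposited files list without a gene name or a position, 1 locus was high where annotated Sparc was low. It has 4 assembled transcripts, and it was found after the values were seen, by searching 8227 assembled loci for those whose deviations within groups mirrored those of a member (r under -0.5 and slope between -2 and -0.5). It was the 1 locus that met this for Sparc, with r = -0.68 and a slope of -1.16 over 30 libraries. The same search met 7 loci for Tnc, 3 for Thbs1, 1 for Sparcl1 and 0 for the other 4 members, so meeting it does not tie a locus to a gene. Spearman's rho of annotated Sparc with the locus was -0.55 over the 30 libraries. It was more negative with a Col5a3 transcript (-0.685) and with assembled transcripts of other loci (-0.679 each). Those transcripts reached at most 4.24 FPKM. By rank correlation the locus was thus not the closest mirror of Sparc. Whether the locus is transcribed from Sparc was not tested, since no position was used here.

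The locus held 335, 50.5, 709, 599 and 892 FPKM in Control and 1293, 1550, 2844, 1217 and 161 FPKM in AngII. In AngII+ETH it held 64.8 to 81.9 FPKM. Annotated Sparc made up 90.6% to 96.3% of the sum of Sparc and the locus in 17 libraries and 4.25% to 9.45% in 12 libraries, with only Control 1 between them, at 60.8%. All 5 AngII+ETH libraries were of the first kind, as were 4 AngII+VAL, 3 AngII+GAS, 3 AngII+BAI, 1 AngII and 1 Control libraries. The share thus stood at either end in 29 of 30 libraries. The locus was kept because it mirrored Sparc within groups, so shares at 2 ends were favoured by the selection. A difference between groups in this share was not tested.

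The sum of annotated Sparc and the locus was more even than annotated Sparc in all 6 groups, though only slightly in AngII+ETH. The coefficient of variation went from 102% to 18.6% in Control and from 173% to 38.4% in AngII, but only from 70.5% to 58.8% in AngII+BAI, and it was 22.4% and 21.4% in AngII+ETH, where nearly all of the sum was annotated Sparc. In Control it was 856, 603, 776, 660 and 957 FPKM, and in AngII 1351, 1622, 3035, 1297 and 1952 FPKM. Every AngII library exceeded every Control library on this sum, as did all 5 AngII+ETH libraries (1232 to 2189 FPKM). Of the remaining libraries 2 of AngII+VAL, 3 of AngII+GAS and 4 of AngII+BAI did so. The pooled SD of the sum within groups was 0.51 on the log2 scale. The search kept loci that mirrored the member within groups, so a more even sum was largely built in by the selection. With the best of its 3 loci, Thbs1 likewise went from 0.87 to 0.30.

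The contrasts moved when the locus was added to annotated Sparc. Annotated Sparc differed between AngII+ETH and AngII by 3.22 on the log2 scale (SE 0.88, limma adjusted p = 0.99), while the sum differed by -0.13. Between AngII and Control, annotated Sparc differed by 0.12 and the sum by 1.21. Mean sums were 1851 FPKM in AngII and 771 FPKM in Control. The sum is a description with no test, because the locus was selected on these values.

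**Figure D4:**
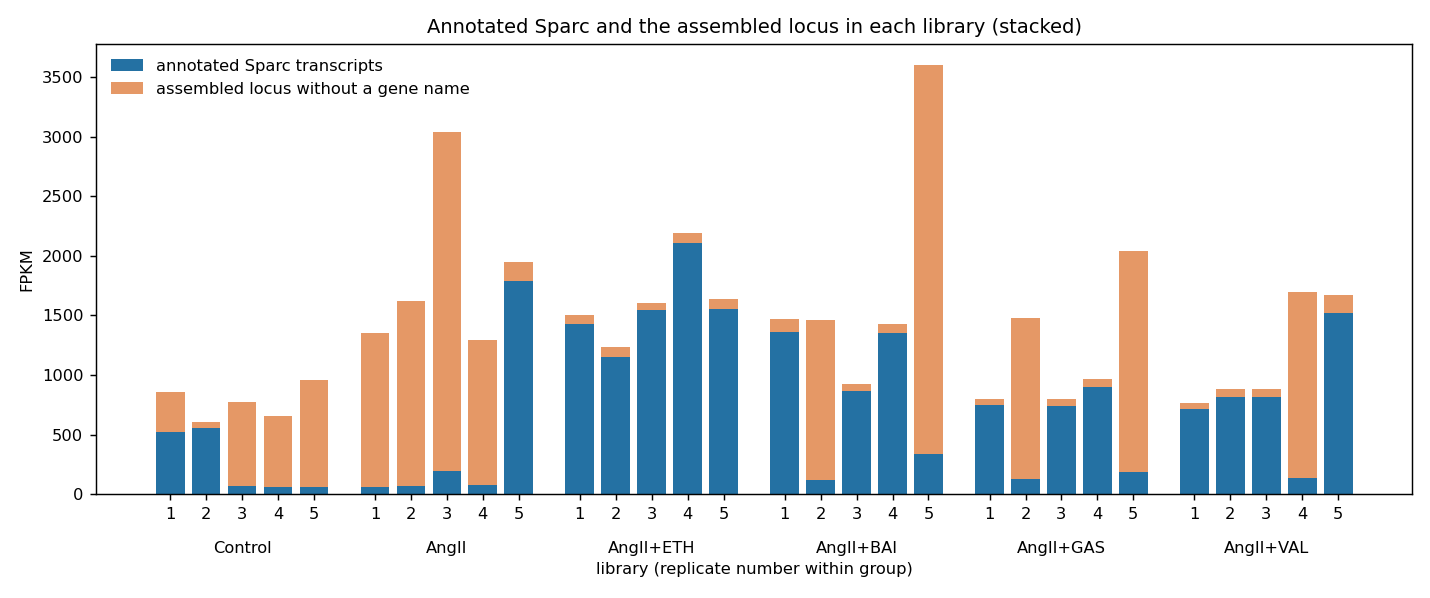
Stacked bars of annotated Sparc (blue) and of the assembled locus without a gene name (orange) in FPKM, for each of 30 libraries in 6 groups. Within groups, orange tends to be low where blue is high. The summed bars of AngII (1297 to 3035 FPKM) all exceed those of Control (603 to 957 FPKM).

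The annotated transcripts of Sparc exchanged places. Sparc-201 was the leading transcript in 24 libraries and Sparc-202 in 6, and they differ in the 3 capital bases of the exon shown above and in their 5′ ends. In AngII+BAI 1, Sparc-202 held 1340 FPKM and Sparc-201 15.9 FPKM. In AngII+ETH 3 they held 940 and 576 FPKM, and in the other AngII+ETH libraries Sparc-202 held 27.1 to 73.5 FPKM. The sum for the gene holds both transcripts, so an exchange between them does not enter it.

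Postn showed the cleanest exchange. Transcripts with the 84-base exon made up 71.6% to 86.6% of the FPKM of coding transcripts that span it in 15 libraries and 4.05% to 14.7% in the other 15. The first kind included 2 AngII+VAL, 3 AngII+GAS, 3 AngII+BAI, 4 AngII+ETH, 1 AngII and 2 Control libraries. The summed Postn level had medians of 688 FPKM in the first 15 libraries and 595 FPKM in the others, with overlapping ranges of 318 to 1107 and 294 to 1908 FPKM. Of the 15 libraries with a high share of the exon, 12 were also among the 17 in which annotated Sparc dominated its sum with the locus. The other 3 had a low Sparc share, 5 libraries had only the Sparc share high, and in 9 both were low. All 5 AngII+ETH libraries were among the 17, and a link between the 2 splits was not tested.

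**Figure D5:**
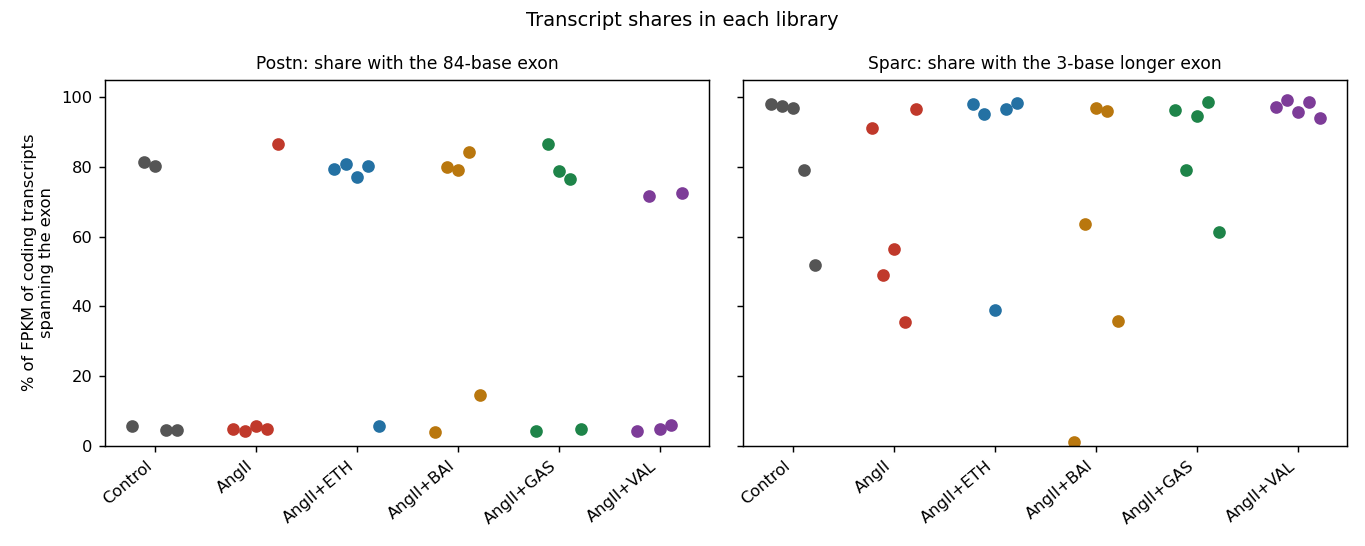
Share of FPKM, in percent, that came from transcripts with the 84-base Postn exon (left) and with the longer form of the Sparc exon (right), among coding transcripts spanning each, 1 point per library. The Postn shares fall at 4.05% to 14.7% or at 71.6% to 86.6% with no library between.

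Most Fn1 signal was assigned to a partial model. ENSMUST00000185408, annotated as a retained intron and covering 17 exons at the 3′ end of the gene, held 51.7% to 96.6% of the FPKM in 29 libraries and was listed at 0 in AngII+BAI 1. In AngII+BAI 1 the full-length coding transcript ENSMUST00000188894 held 100.2 FPKM instead. Another partial model, ENSMUST00000189160, held 28.4 to 135 FPKM in 6 libraries and at most 2.96 FPKM in the others. The full-length coding transcripts were at low levels, so the 270-base exon was compared only as a share. It was present in 56.2% to 85.8% of the spanning coding FPKM in Control and in 47.3% to 88.2% in AngII, ranges that overlap almost entirely. That spanning coding FPKM was only 3.88 to 11.2 in Control and 10.3 to 24.1 in AngII, so these ranges overlapped, unlike those of the gene sum. The leading partial model also covers the position of the exon and was left out of the share as noncoding. The share of all Fn1 RNA with the exon is therefore not known.

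Spp1 levels were divided among 3 coding transcripts. ENSMUST00000031243 led in 17 libraries, ENSMUST00000112747 in 9 and ENSMUST00000112748 in 4. In AngII+BAI 3, ENSMUST00000112747 held 512 of the 602 FPKM, and in AngII+BAI 5 ENSMUST00000031243 held 181 of the 290 FPKM. Thbs1, Thbs2 and Sparcl1 were carried by 1 transcript each in every library. Their leading transcripts held at least 96.9% of the gene's FPKM, so the levels of these 3 members rest on 1 model each.

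For Tnc, the assembled locus whose addition gave the most even sum held 20.8 to 53.0 FPKM in the 5 libraries with low Tnc and 2.63 to 28.3 FPKM in the others. The pooled SD of Tnc within groups was 1.26 on the log2 scale alone and 0.48 with that locus, which was the best of 7. The search kept loci that mirrored Tnc within groups, so a lower SD was largely built in. The origin of the locus was not tested.

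The members were not a block that moved as 1. Over the 30 libraries Spearman's rho was highest between Postn and Thbs2 (0.76) and between Thbs1 and Thbs2 (0.75), and Sparc had a rho of 0.10 with Fn1 and 0.12 with Postn. The genes most like Postn were Cd109, Col15a1 and Loxl1, an elastin and collagen crosslinking oxidase (rho 0.94, 0.92 and 0.89). Those most like Fn1 were Col4a2, Tgm2, a transglutaminase that crosslinks fibronectin, and Hip1 (0.88, 0.85 and 0.81).

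Thbs1 was most like Col5a2, Man1c1 and Itpripl2 (0.85, 0.84 and 0.84), and Thbs2 most like Plod2, a collagen lysyl hydroxylase, Chsy1 and Gcnt4 (0.86, 0.84 and 0.84). Spp1 was most like Diaph3, Timp1, an inhibitor of matrix metalloproteinases, and Ccna2, a cyclin of dividing cells (0.91, 0.90 and 0.89). Timp1 ranged from 5.96 to 363 FPKM and was highest in AngII+BAI 3. Sparcl1 was most like Slc6a17, Col4a3 and Dpep1 (0.88, 0.84 and 0.81). For annotated Sparc the closest gene, Bet1l, reached 0.63, and for Tnc the closest, Rab3gap2, 0.67. All these values describe the same 30 libraries, which share groups and depth.

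Among 20 tested genes of other matricellular and matrix glycoproteins, 0 were called between AngII and Control, all 20 differences were positive, and their median was 0.55 beside 0.11 for all genes. The smallest p belonged to Ccn5, a growth-inhibiting member of the CCN family, with 36.3 ± 1.93 FPKM in Control and 95.8 ± 45.4 FPKM in AngII (log2 fold change 1.26, SE 0.38, limma adjusted p = 0.22), and to Matn2, a matrilin, with 12.5 ± 4.18 and 32.6 ± 21.1 FPKM (1.13, SE 0.37, adjusted p = 0.25; n = 5 each). In AngII+BAI against Control 2 of 20 rose and 0 fell. These were Lgals3, galectin 3, abundant in macrophages, at 71.8 ± 36.6 against 14.3 ± 1.76 FPKM (2.09, SE 0.42, limma adjusted p = 0.028) and Comp, a pentameric thrombospondin, at 52.6 ± 47.7 against 12.9 ± 2.86 FPKM (1.59, SE 0.41, adjusted p = 0.049). Without AngII+BAI 3 and 5 their adjusted p-values were 0.11 and 0.091.

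Of the 17 receptors, 0 were called in any comparison, and their median difference between AngII and Control was 0.13. Itgb8, the integrin subunit that activates latent transforming growth factor beta, had the smallest p in AngII against Control (1.01, SE 0.26, limma adjusted p = 0.16), with 2.82 ± 1.67 FPKM in AngII and 0.742 ± 0.223 in Control. It was at 0.664 ± 0.153 FPKM in AngII+GAS (difference from AngII -1.08, adjusted p = 0.17) and 0.884 ± 0.293 FPKM in AngII+VAL (-0.91, adjusted p = 0.19). Itgb3, the partner of integrin alpha v in binding osteopontin and fibronectin, had 9.67 ± 3.10 FPKM in AngII+BAI and 19.1 ± 4.03 FPKM in AngII (-0.95, SE 0.23, adjusted p = 0.067).

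Of 18 assembly partners and collagens, 0 were called between AngII and Control, 16 differences were positive and the median was 0.47. Col1a1, a chain of type I collagen, had 185 ± 37.2 FPKM in Control and 666 ± 519 FPKM in AngII (1.59, SE 0.49, limma adjusted p = 0.23). Outside AngII+BAI against Control, no gene of these 3 lists was called in any comparison.

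In the order of group means on the log2 scale, 40 neighbouring pairs of groups were compared over the 8 members, and in all 40 the ranges overlapped. The kit did not mark strand, so reads of antisense or overlapping transcripts could enter any of these levels.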

How the data were processed

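The authors deposited FPKM values per transcript for 30 libraries, covering annotated and assembled transcripts; the files name no unit, and it was inferred from the values. The submitters' processing notes name the build mm10 and limma. The aligner, assembler and quantifier are not given in the sources used here. Libraries were prepared with NEBNext Ultra from total RNA after ribosomal RNA depletion, per the labels' protocols.

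Of 49085 transcripts in any file, 39267 were listed for all groups, and 27797 of these matched GENCODE M21 and were summed to 14379 genes. The 13223 genes that reached 1 FPKM in 5 or more libraries were tested on log2(FPKM + 1) with limma 3.58.1 in R 4.3.3 (trend and robust settings, 24 residual degrees of freedom), in 9 comparisons. Between 98.9% and 99.8% of low values lay within 0.1 read of a whole number. Such floors cover counting error only.

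The members, gene lists and tests were chosen with earlier results of these data known. Named from the lists were up to 5 called genes per comparison or, with none, up to 2 with the smallest p in AngII against Control and the compound comparisons with AngII, and the 3 genes most like each member by Spearman's rho. Alternatives were a pseudocount of 0.1, no filter, quantile normalization, array weights, models of 2 groups, unlisted transcripts set to 0, and leaving out each library. Python 3.11.15 was used for summaries. The fit was tested on simulated data. A result of the third list in AngII+BAI against Control is not reported here.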

Additional observations from a re-analysis of the deposited data

Results flagged for a closer look

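A library was marked when its distance to the nearest other library exceeded 0.71 of the group's range on the log2 scale, for each of 8 members in 6 groups. For independent, normally distributed values this rule marks about 1 in 20 groups, and here it marked 9 of 48. The members share libraries and were chosen with earlier results known, and the share over all genes was not computed. The count is therefore not a measure of an excess. High libraries were Postn in AngII 3 (1102 FPKM, others 501 to 615), Thbs1 in AngII+ETH 4 (81.2 FPKM, others 26.0 to 32.9), Thbs2 in AngII+BAI 5 (206.5 FPKM, others 12.4 to 14.1), Spp1 in Control 5 (29.9 FPKM, others 0.667 to 2.001) and Spp1 in AngII 3 (146.8 FPKM, others 4.30 to 9.34). Low libraries were Postn in AngII+ETH 5 (394.7 FPKM, others 728 to 910), Tnc in AngII 4 (1.58 FPKM, others 12.7 to 20.7), Tnc in AngII+VAL 2 (1.33 FPKM, others 17.4 to 29.0) and Thbs1 in AngII+VAL 1 (13.8 FPKM, others 28.1 to 36.8). The same library, AngII 3, was high for both Postn and Spp1.

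The assembled locus that was set beside Sparc lies outside the gene sums. It was above its highest Control value (892 FPKM) in 9 of the infused libraries, reaching 3257 FPKM in AngII+BAI 5.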

How the results depend on the processing

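No paired analysis was possible because the labels number no replicates, and the numbers used here follow accession order and tie no library to another. Of 1168 member fold changes recomputed under other settings, 1166 moved by less than the pooled SD of the gene. The other 2 were Thbs1 in AngII+BAI without AngII+BAI 3 and 5, chosen after seeing the data, at -0.75 against AngII and 0.82 against Control. In AngII+BAI against Control, 1 member was called. The number was 0 with array weights (Spp1 adjusted p = 0.16), 0 in the model of these groups alone (0.33) and 0 without AngII+BAI 3 and 5, and it ran from 0 to 2 when a library was left out, with Thbs1 the added gene. Over that comparison's settings the adjusted p of Spp1 ran from 0.007 to 0.33. In AngII+BAI against AngII the number of called members ran from 0 to 1 (Sparcl1). In the other 7 comparisons it was 0 under all settings run.

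The assembled locus was added to annotated Sparc after seeing the data, and whether it belongs to Sparc was not tested. The mean of this sum was 770.5 FPKM in Control, 1851 in AngII, 1776 in AngII+BAI and 1216 in AngII+GAS. With Sparc-201 alone, or with unlisted transcripts set to 0, each group mean of annotated Sparc moved by less than its SD. Sparc-201 alone took that of AngII+BAI from 806 to 450.2 FPKM, since Sparc-202 led in AngII+BAI 1 and 5.

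Calls over all genes depended on the setting. For AngII against Control the count was 0, and 64 with array weights and 4 without the filter. For AngII+BAI against AngII it was 44, and 0 with array weights or 2 groups alone, 74 with unlisted transcripts set to 0 and 102 without AngII+BAI 3 and 5. For AngII+BAI against Control it was 190, and 25 with array weights, 5 in 2 groups alone, 329 with unlisted transcripts set to 0 and 33 without AngII+BAI 3 and 5. Leaving out a library gave 0 to 41, 0 to 184 and 8 to 954 genes in these comparisons. In the other 6 comparisons the count was 0 to 2, and at most 232 under other settings (AngII+GAS against AngII with array weights).

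At 0.0187 to 0.0213 FPKM per 3 reads on 2 kb, no member was near the limit of depth in any library.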
